A study of Homo sapiens with 12 samples.

Results

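Human chromosome 14 carries, a short way from its centromere, a series of genes with unrelated duties in bands q11.2 to q12. A total of 44 of these neighbouring genes, of 63086 rows in the deposited expression table, are described here across 4 lines of MIA PaCa-2, an established human pancreatic cancer cell line. The 44 were taken by name, and were chosen by their normalised counts, as neighbours whose levels shifted jointly between the lines, so their own differences are given as a description without a test. Of the 44 members, 43 were found by symbol, and HOMEZ, whose row has no symbol, was found by its identifier. On GRCh38 with GENCODE genes they start between chr14:23272422 (HOMEZ) and chr14:30893799 (STRN3), an interval of 7.62 Mb that holds 166 annotated genes. The block is not continuous in expressed genes. No gene of the interval that was expressed enough to be tested starts between AL132800.1 (chr14:24443010) and PRKD1 (chr14:29576479). Most tested members lie before this stretch, and PRKD1, G2E3, SCFD1, COCH and STRN3 lie after it.

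The 4 lines were unmodified cells (WT), a CRISPR Control line that went through editing but carries only a silent point mutation, and a pair of knockout lines, TIMP1 KO 1 and TIMP1 KO 2, whose guide RNAs differed and were aimed at exon 4 of that gene. TIMP1, on the X chromosome, encodes a secreted inhibitor of metalloproteinases, and all lines were grown in the same medium without treatment. RNA was sequenced from 3 biological replicates of each line, 12 libraries in all, and replicates here are samples of one line, so that the spread between them may be partly technical. Every edited line comes from its own edited cells, which means that any change a line acquired apart from its edit cannot be told apart from the edit itself.

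Genes of the block share a neighbourhood rather than a pathway. Neighbours on a chromosome can be read from shared promoters, can lie within one stretch of open chromatin, and are gained or lost together when a cell changes its number of copies of a segment, which tumour cell lines often do. The block includes the telomere protein TINF2, the ubiquitin-like modifier NEDD8, the necroptosis kinase RIPK3, the kinase PRKD1 and a family of short-chain dehydrogenases, and a pair of proteasome activator genes and the interferon regulator IRF9 lie among them. DNA of the lines was not analysed here.

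Libraries held 26908701 to 36093563 reads in genes. TIMP1 itself averaged 3553 ± 274 normalised counts in WT (SD, n = 3), 2690 ± 357 in CRISPR Control, 1600 ± 32.8 in TIMP1 KO 1 and 1161 ± 28.8 in TIMP1 KO 2. The targeted transcript was thus lower in both knockout lines without being absent. It was also lower than in WT in CRISPR Control, by a log2 difference of -0.41. KRT8 and VIM, markers of epithelial and of mesenchymal cells, were abundant in every line, and CD3E, PTPRC, CD68 and PECAM1, markers of blood and vessel cells, had at most 17.2 normalised counts in any library. CRISPR Control also stood apart in KRT8, with 34968 to 45063 normalised counts against 122928 to 138359 in WT.

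Promoter windows are shown first for PRKD1, ZFHX2 and JPH4, tested members at the extremes of TIMP1 KO 2 against CRISPR Control, and for DHRS2, the tested member farthest above WT in TIMP1 KO 2. RefSeq start sites (GRCh38.p14) matched 41 of the 44 members, each with 250 bases before and 50 after the start. Capitals mark the TATA box letters TATAAA and the GC box letters GGGCGG, read on both strands, and a CCAAT search gave no match in these 4 windows. The windows are PRKD1 at chr14:29927798-29928097 (minus strand), ZFHX2 at chr14:23551716-23552015 (minus strand), JPH4 at chr14:23578741-23579040 (minus strand) and DHRS2 at chr14:23629865-23630164 (plus strand).
PRKD1: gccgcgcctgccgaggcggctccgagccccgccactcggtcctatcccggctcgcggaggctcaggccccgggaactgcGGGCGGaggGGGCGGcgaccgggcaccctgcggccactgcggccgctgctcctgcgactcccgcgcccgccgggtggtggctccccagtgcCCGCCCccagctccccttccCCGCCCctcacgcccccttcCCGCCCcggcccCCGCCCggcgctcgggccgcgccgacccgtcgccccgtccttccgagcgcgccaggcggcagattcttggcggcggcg
ZFHX2: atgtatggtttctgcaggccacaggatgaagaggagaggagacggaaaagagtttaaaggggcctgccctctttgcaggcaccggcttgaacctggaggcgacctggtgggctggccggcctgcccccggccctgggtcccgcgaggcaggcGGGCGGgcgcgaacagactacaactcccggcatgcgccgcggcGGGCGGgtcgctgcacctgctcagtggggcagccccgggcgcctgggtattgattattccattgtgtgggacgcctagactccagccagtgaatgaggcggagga
JPH4: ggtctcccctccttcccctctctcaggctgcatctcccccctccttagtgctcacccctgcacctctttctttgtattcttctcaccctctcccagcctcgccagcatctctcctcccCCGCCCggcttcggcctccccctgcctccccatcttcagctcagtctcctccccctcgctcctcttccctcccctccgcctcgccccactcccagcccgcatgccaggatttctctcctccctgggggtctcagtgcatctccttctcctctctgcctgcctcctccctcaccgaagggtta
DHRS2: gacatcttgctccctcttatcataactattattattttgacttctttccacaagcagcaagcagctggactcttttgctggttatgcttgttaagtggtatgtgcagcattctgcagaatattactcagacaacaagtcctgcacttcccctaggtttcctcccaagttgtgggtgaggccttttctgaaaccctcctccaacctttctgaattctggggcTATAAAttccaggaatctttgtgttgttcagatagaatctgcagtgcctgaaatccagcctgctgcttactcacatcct
The windows of PRKD1, ZFHX2, JPH4 and DHRS2 hold 46, 22, 9 and 0 CG dinucleotides. Of the 5 members that were higher in CRISPR Control than in WT, NFATC4 has 27, PCK2 23 and NYNRIN 18 beside JPH4 and DHRS2. KHNYN, lower there like PRKD1 and ZFHX2, has 8. A relation between these numbers and the level in CRISPR Control was not tested. RefSeq starts can also lie away from the GENCODE bounds of a gene. The THTPA window ends at chr14:23511809 and the gene starts at chr14:23555988, and the PRKD1 window lies inside its gene, which reaches chr14:30191898. Over the 41 member windows the median was 21 CG dinucleotides, against 14 over 27305 RefSeq windows of the same length. The GC box letters were found in 29 of the 41 member windows (70.7%) and in 44.6% of all windows. The set of all windows was not limited here to expressed or protein-coding genes, whereas the members are protein coding. A comparison with windows of like genes was not made. CCAAT was found in 16 member windows (39.0%, against 35.7% of all) and TATAAA in 4 (9.76%, against 11.95% of all), those of COCH, CPNE6, DHRS2 and FITM1.

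The block as a whole was lowest in CRISPR Control. Of the 44 members, 36 had a mean of at least 10 normalised counts over the 12 libraries and entered the fit over 15987 genes. For each of them the log2 value in a library was set against the gene's mean over all 12 libraries, and the median over members gives a level for the block. That level was 0.11, 0.01 and 0.02 in the WT libraries, -0.66, -0.56 and -0.50 in CRISPR Control, 0.26, 0.23 and 0.22 in TIMP1 KO 1, and 0.23, 0.31 and 0.33 in TIMP1 KO 2. No library of one line crossed into the range of another, except that the TIMP1 KO 1 and TIMP1 KO 2 libraries overlapped. In bulk RNA, a lower level in every cell of a line and a loss from some of its cells cannot be told apart.

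**Figure D1:**
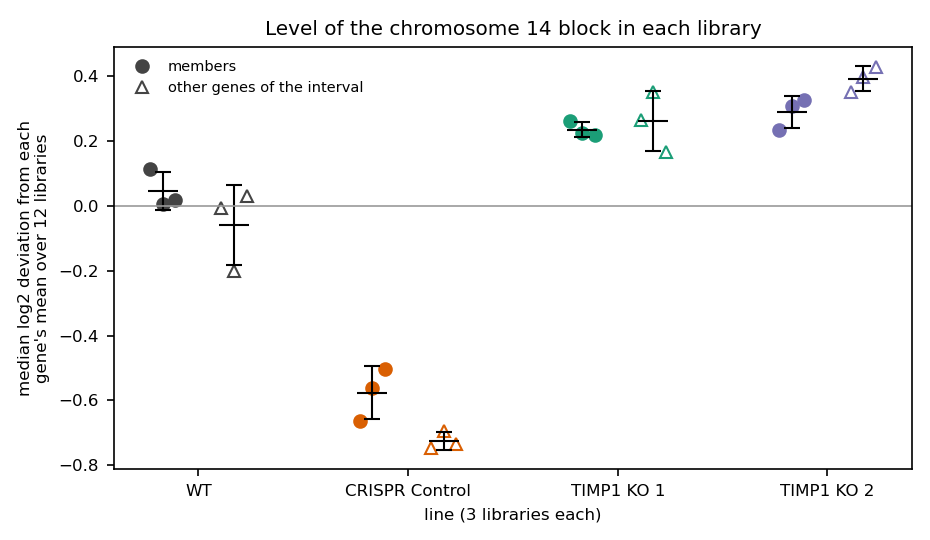
Median log2 deviation from each gene's own mean over the 12 libraries, for the 36 tested members (filled circles) and 19 other tested genes of the interval (open triangles), by line. Black bars give the mean ± SD of 3 libraries. CRISPR Control lies at -0.58 ± 0.08 for the members and WT at 0.05 ± 0.06, with both knockout lines above.

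CRISPR Control was the lowest line for 29 of the 36 members. All 3 of its libraries lay below the other 9 for 23 members, an arrangement seen in 17.5% of all tested genes, and above the other 9 for 3 members (18.6% of all tested genes). TIMP1 KO 2 was the highest line for 16 members, TIMP1 KO 1 for 14, and WT and CRISPR Control for 3 each.

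Set against WT, the members of the block had a median log2 difference of -0.63 in CRISPR Control, 0.648 of the WT level, while the median over all tested genes was 0.01. By limma, with an adjusted p under 0.05, 26 members were lower and 5 were higher, against 26.3% and 27.2% of all tested genes. The median was 0.19 in TIMP1 KO 1, with 12 members higher and 0 lower (18.0% and 17.5% of all tested genes), and 0.29 in TIMP1 KO 2, with 20 higher and 6 lower (27.1% and 27.9%). In this last comparison 17 rather than 26 members were called without WT replicate 3, and the median was 0.57 over the 18 members that share less than 10% of their exon bases with another gene, over which that of CRISPR Control was -0.39. These counts and medians restate the shift by which the members were chosen. The 3 comparisons share the WT libraries.

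**Figure D2:**
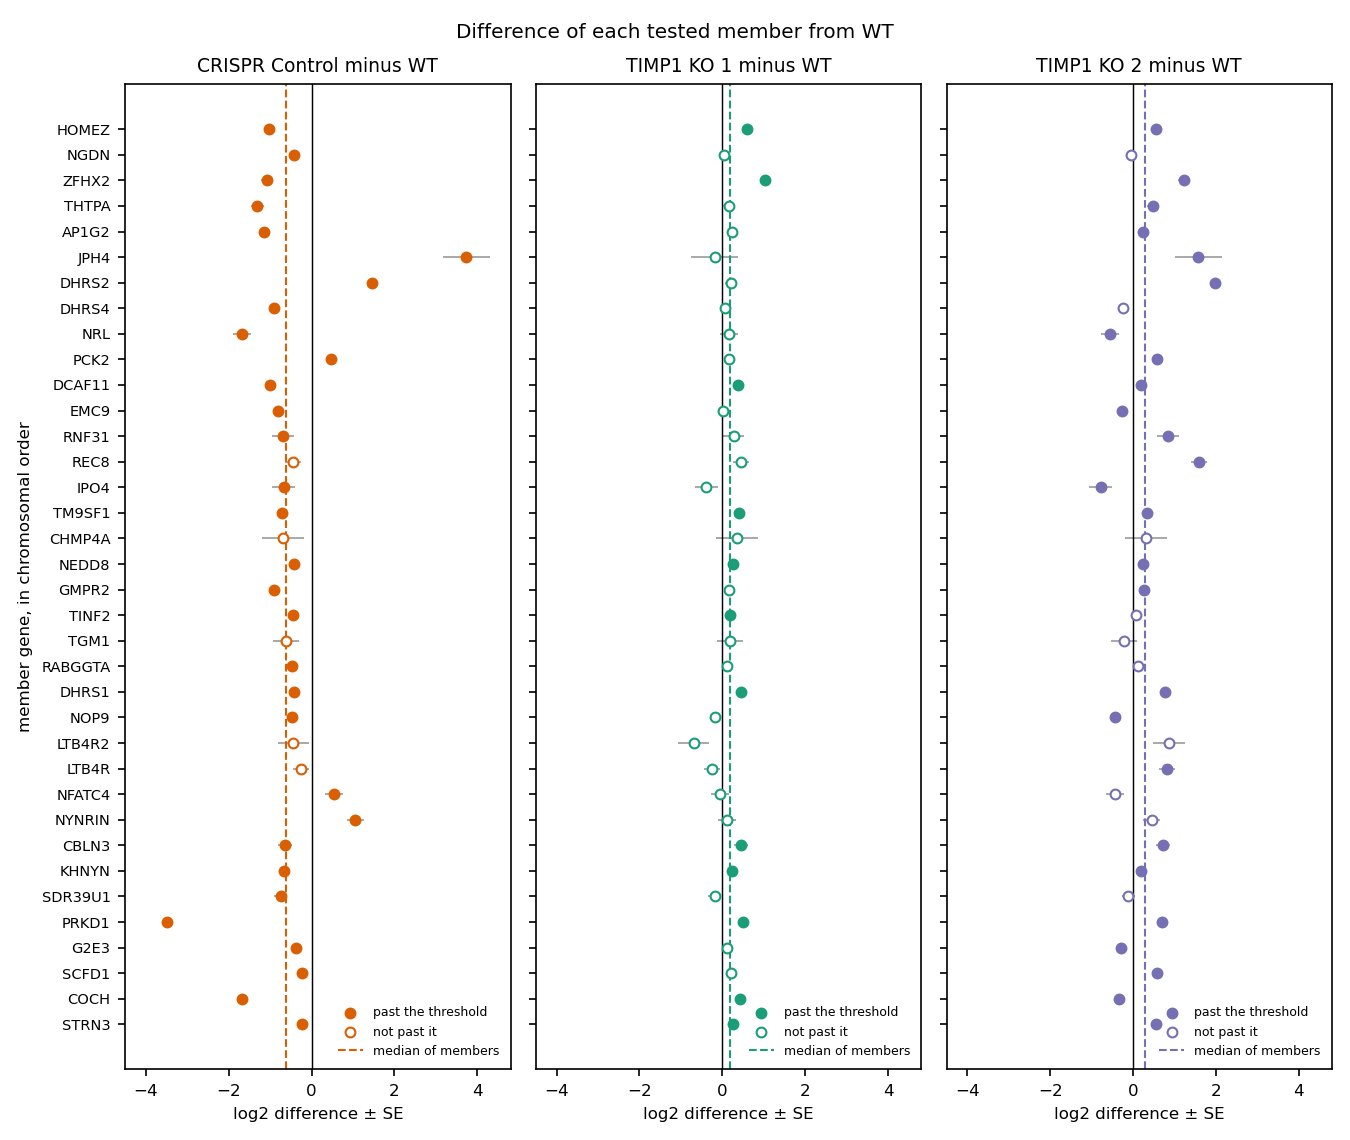
Log2 difference from WT (x axis, ± SE of the limma fit) of each of the 36 tested members, in the order of their start sites from top to bottom, for the 3 edited lines. Filled points had an adjusted p under 0.05 over all tested genes, open points did not, and dashed lines give the member medians of -0.63, 0.19 and 0.29. In CRISPR Control most members lie left of 0, both before and after the stretch without tested genes that precedes PRKD1, and 5 lie right of it.

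Set against CRISPR Control, the knockout lines held the block at a median of 0.82 (TIMP1 KO 1) and 0.84 (TIMP1 KO 2) on the log2 scale, folds of 1.76 and 1.79. In TIMP1 KO 1, 27 members were higher and 5 lower (31.7% and 31.3% of all tested genes). In TIMP1 KO 2, 27 were higher and 3 lower (33.3% and 34.4%). Over the 18 members with little exon sharing the medians were 0.49 and 0.69. Among the tested members the highest differences in TIMP1 KO 2 were those of PRKD1 (4.18), ZFHX2 (2.30) and REC8 (2.04), and the lowest those of JPH4 (-2.15), NFATC4 (-0.98) and NYNRIN (-0.60). Between the knockout lines the member median was 0.02 (0.24 over the 18 with little exon sharing), with 9 members higher in TIMP1 KO 2 and 7 lower (18.1% and 20.1%). With libraries scaled to equal totals instead, these counts were 11 and 3, beside 3888 genes higher and 2045 lower of all tested, where 2890 and 3210 stood before, and in TIMP1 KO 2 against WT 23 members were higher and 3 lower, beside 5234 and 3500 of all genes, where 4330 and 4461 stood before. With the knockout lines joined as deficient and WT and CRISPR Control as competent, the median was 0.49, with 25 members higher and 2 lower (32.9% and 33.0%). The competent lines differed from each other by more than that, so the joined value lies between unlike comparisons with WT and with CRISPR Control.

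Of the 7 tested members grouped here under transcription and RNA binding, 6 were lower and 1 higher in CRISPR Control than in WT (26.3% and 27.2% of all tested genes). This count restates how members were chosen. It leaves out the transcription factor NFATC4, which was higher in CRISPR Control and is grouped with the signalling genes below. HOMEZ, a nuclear protein with homeobox and leucine zipper motifs at the near end of the block (chr14:23272422-23299796), had 558, 487 and 527 normalised counts in WT, 238, 247 and 286 in CRISPR Control, 751, 803 and 802 in TIMP1 KO 1 and 770, 835 and 704 in TIMP1 KO 2. CRISPR Control was below WT and both knockout lines were above it, with no overlap of either with WT. The log2 difference from WT was -1.03 (SE 0.10) in CRISPR Control and 0.58 and 0.55 in the knockout lines. ZFHX2, a zinc finger homeobox protein (chr14:23520857-23556192), followed the same order with a wider span, at 148, 155 and 162 in WT, 70.0, 61.7 and 87.9 in CRISPR Control, 335, 309 and 312 in TIMP1 KO 1 and 337, 386 and 363 in TIMP1 KO 2. Its knockout libraries were all above its WT libraries, which were all above those of CRISPR Control.

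KHNYN, a partner of the antiviral RNA-binding protein ZAP (chr14:24429286-24441843), had the highest mean of this group, with 2917, 2688 and 2784 normalised counts in WT, 1840, 1678 and 1785 in CRISPR Control, 3307, 3313 and 3265 in TIMP1 KO 1 and 3128, 3153 and 3276 in TIMP1 KO 2. Its CRISPR Control libraries lay below all others, at 0.632 of the WT level, and the knockout lines were 1.18-fold and 1.14-fold above WT. NRL, known as a transcription factor of rod photoreceptors, fell to 0.313 of WT in CRISPR Control, and the ribosome assembly proteins NGDN and NOP9 to 0.751 and 0.719. NYNRIN, a protein with an RNA-cleaving NYN domain, went the other way, with 53.2, 31.8 and 40.0 in WT and 95.9, 71.2 and 92.3 in CRISPR Control, against 41.5 to 59.5 in the 6 knockout libraries. NOVA1, a splicing regulator of neurons, had 0 reads in all 12 libraries, which allows up to 3 reads in each.

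**Figure D3:**
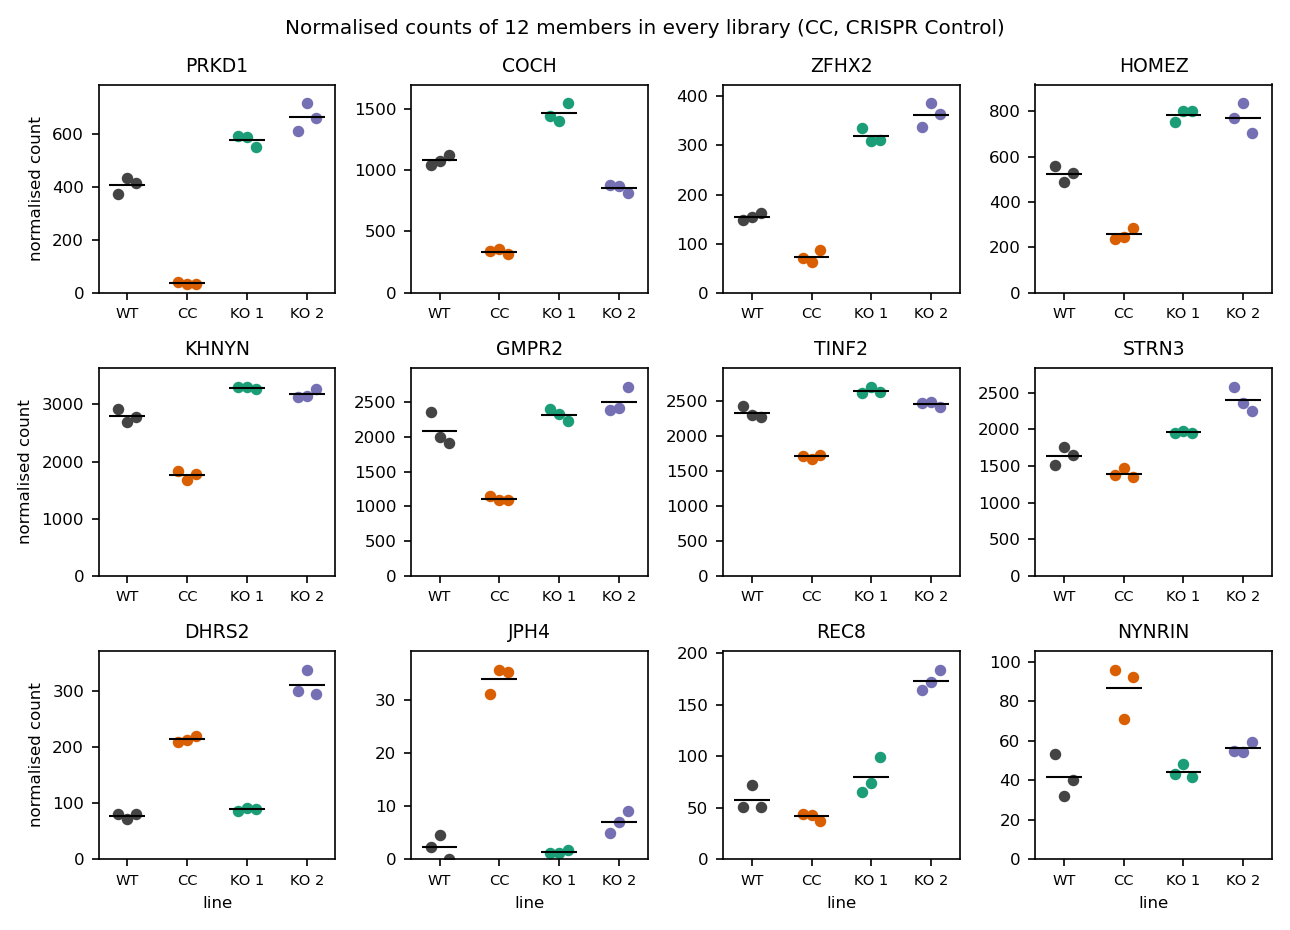
Normalised counts (y axis, from 0) of 12 members in each of the 12 libraries, by line (CC, CRISPR Control). Black lines are means of 3 libraries. The first 8 genes have CRISPR Control as their lowest line, whereas DHRS2, JPH4 and NYNRIN were higher there than in WT, and REC8 stood out in TIMP1 KO 2 at 164 to 184.

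Genes of transport, sorting and membrane insertion made up the largest group, with 8 of 10 tested. SCFD1, which guides vesicle fusion between endoplasmic reticulum and Golgi (chr14:30622291-30737694), had 1934, 2299 and 2015 normalised counts in WT, 1754, 1887 and 1630 in CRISPR Control, 2271, 2484 and 2442 in TIMP1 KO 1 and 3475, 2923 and 2960 in TIMP1 KO 2. Its CRISPR Control libraries were below all others by a small margin, at 0.845 of WT, and its TIMP1 KO 2 libraries were above all others. AP1G2, a gamma subunit of the clathrin adaptor AP-1, stood at 0.452 of WT in CRISPR Control, EMC9 of the endoplasmic reticulum membrane complex at 0.567, and RABGGTA, a subunit of the enzyme that attaches lipids to Rab proteins, at 0.724. CHMP4A, of the membrane-cutting ESCRT-III complex, had 3.56 to 23.0 normalised counts in any library and did not pass the test against WT, TM9SF1 stood at 0.613 of WT in CRISPR Control, and IPO4, an importin, at 0.630. These 3 genes share 69.2% (CHMP4A), 59.6% (TM9SF1) and 68.7% (IPO4) of their exon bases with other gene models on the same strand, and reads lost or gained there cannot be told apart from their own level.

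JPH4, a junctophilin that ties the endoplasmic reticulum to the plasma membrane in excitable cells, was the strongest exception in the block. It had 2.26, 4.55 and 0 normalised counts in WT, 31.1, 35.6 and 35.2 in CRISPR Control, 1.08, 1.13 and 1.77 in TIMP1 KO 1 and 4.97, 7.01 and 9.08 in TIMP1 KO 2. All 3 CRISPR Control libraries were above the other 9, in which the row held at most 9.08. Its next neighbour on the same strand, AP1G2, which shares 0.62% of the JPH4 exon bases, was low in the same libraries at 436, 327 and 412 against 824 to 913 in WT. AP1G2 itself shares 50.8% of its exon bases with genes on the opposite strand. STXBP6, a SNARE-binding protein, was too low for the fit, with 0 reads in TIMP1 KO 1 and 11.6, 19.3 and 28.3 normalised counts in TIMP1 KO 2, which is at least 6.38-fold higher than the floor of 3 reads a library, against 10.2, 4.55 and 0 in WT. CPNE6, a calcium-dependent membrane-binding protein, had at most 3.30.

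The 4 tested ubiquitin and NEDD8 genes were each lower in CRISPR Control than in WT (26.3% of all tested genes were), which again restates the choice of members. G2E3, a ubiquitin ligase (chr14:30559158-30620064), had 2183, 2981 and 2595 normalised counts in WT, 2080, 2060 and 1805 in CRISPR Control, 2825, 2748 and 2775 in TIMP1 KO 1 and 2367, 1988 and 1967 in TIMP1 KO 2. CRISPR Control and TIMP1 KO 2 overlapped for this gene, both below TIMP1 KO 1. DCAF11, a substrate receptor of CUL4 ligases, showed a wider gap, at 0.500 of WT in CRISPR Control and 1.30-fold and 1.13-fold WT in the knockout lines. NEDD8 stood at 0.743 of WT in CRISPR Control and RNF31, the catalytic subunit of the ligase for linear ubiquitin chains, at 0.621. The RNF31 row holds few reads, 12.1 to 62.3 normalised counts a library, and 53.3% of its exon bases are shared with other gene models on the same strand.

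Of the metabolic enzymes, GMPR2, a GMP reductase (chr14:24232422-24239242), had the highest mean. It had 2357, 1996 and 1912 normalised counts in WT, 1145, 1089 and 1086 in CRISPR Control, 2403, 2321 and 2229 in TIMP1 KO 1 and 2380, 2416 and 2720 in TIMP1 KO 2. CRISPR Control was at 0.532 of WT with no overlap. THTPA, a thiamine triphosphatase, fell further, to 0.403 of WT, with 54.5% of its exon bases shared on the same strand with ZFHX2-AS1. PCK2, the mitochondrial enzyme that makes phosphoenolpyruvate, was an exception, with 1011, 959 and 900 in WT, 1154, 1346 and 1491 in CRISPR Control and 1274, 1450 and 1578 in TIMP1 KO 2. Its CRISPR Control and TIMP1 KO 2 libraries overlapped, and TIMP1 KO 1 stayed at 989 to 1137. TGM1, a transglutaminase of the skin barrier, had 14.3 to 36.0 and passed no test against WT, and FITM1, MDP1 and CIDEB, of which FITM1 and CIDEB act at lipid droplets, were too low for the fit.

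TINF2, which holds the shelterin complex together at telomeres (chr14:24238286-24242663), had 2428, 2298 and 2276 normalised counts in WT, 1714, 1671 and 1733 in CRISPR Control, 2612, 2704 and 2625 in TIMP1 KO 1 and 2465, 2482 and 2419 in TIMP1 KO 2. The CRISPR Control libraries were the lowest, at 0.731 of WT, and replicates lay close to each other. REC8, a cohesin subunit of meiosis (chr14:24171853-24180257), was separated mainly by TIMP1 KO 2. It had 50.9, 71.8 and 50.5 in WT, 44.1, 42.7 and 37.4 in CRISPR Control, 64.8, 74.3 and 98.9 in TIMP1 KO 1 and 164, 172 and 184 in TIMP1 KO 2. All TIMP1 KO 2 libraries were above the other 9, and the log2 difference from WT was 1.59 (SE 0.19).

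The short-chain dehydrogenases, enzymes that oxidise or reduce alcohols and carbonyls, did not move as a family. DHRS1 (chr14:24290598-24299780) had 479, 432 and 390 normalised counts in WT, 291, 345 and 324 in CRISPR Control, 597, 587 and 574 in TIMP1 KO 1 and 694, 755 and 772 in TIMP1 KO 2. The 4 lines did not overlap for this gene. DHRS4 and SDR39U1 stood at 0.531 and 0.597 of WT in CRISPR Control, and their knockout lines differed from WT by no more than 0.25 on the log2 scale. SDR39U1 shares 66.6% of its exon bases with KHNYN on the opposite strand. DHRS2, the relative with the CG-free promoter window shown above, had 81.5, 71.8 and 80.0 in WT, 210, 212 and 221 in CRISPR Control, 86.4, 91.1 and 90.1 in TIMP1 KO 1 and 301, 338 and 296 in TIMP1 KO 2. It was thus high in CRISPR Control and TIMP1 KO 2, 2.74-fold and 3.97-fold over WT.

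PRKD1, a kinase that acts downstream of diacylglycerol and protein kinase C (chr14:29576479-30191898), showed the deepest fall of the block. It had 371, 435 and 413 normalised counts in WT, 40.6, 33.2 and 33.0 in CRISPR Control, 591, 588 and 549 in TIMP1 KO 1 and 611, 715 and 661 in TIMP1 KO 2. The CRISPR Control libraries were far below all others and the knockout libraries were above those of WT. The log2 difference of CRISPR Control from WT was -3.48 (SE 0.12), 0.0896 of the WT level, and TIMP1 KO 2 was 18.2-fold above CRISPR Control. STRN3, a scaffold of the STRIPAK phosphatase complex at the far end of the block (chr14:30893799-31026401), differed less in CRISPR Control, at 0.854 of WT. It had 1510, 1756 and 1644 in WT, 1370, 1468 and 1348 in CRISPR Control, 1955, 1976 and 1944 in TIMP1 KO 1 and 2582, 2366 and 2254 in TIMP1 KO 2, with the knockout libraries above the rest. In TIMP1 KO 2 its log2 difference was 0.55 from WT and 0.78 from CRISPR Control, beside member medians of 0.29 and 0.84.

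NFATC4, a calcineurin-regulated transcription factor, had 38.5, 42.7 and 51.4 normalised counts in WT, 61.3, 55.7 and 78.0 in CRISPR Control, 36.7, 40.5 and 51.2 in TIMP1 KO 1 and 30.6, 28.9 and 37.3 in TIMP1 KO 2. It was the reverse of the block, highest in CRISPR Control and lowest in TIMP1 KO 2. The leukotriene receptor genes LTB4R and LTB4R2 were mainly a feature of TIMP1 KO 2, with LTB4R at 142, 154 and 125 there against 51.9 to 91.7 in the other 9 libraries. RIPK3, the kinase that starts necroptosis, had 0 reads in all 12 libraries and ADCY4, an adenylyl cyclase, had at most 2.63 normalised counts.

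Of the secreted products, COCH, the extracellular matrix protein cochlin (chr14:30874514-30895065), had 1041, 1078 and 1119 normalised counts in WT, 338, 352 and 315 in CRISPR Control, 1443, 1403 and 1544 in TIMP1 KO 1 and 876, 874 and 816 in TIMP1 KO 2. The 4 lines did not overlap, and TIMP1 KO 2 lay below WT while TIMP1 KO 1 lay above it. The log2 difference from WT was -1.69 (SE 0.08) in CRISPR Control, and COCH shares 32.9% of its exon bases with genes on the opposite strand, STRN3 among them. CBLN3, a cerebellin, was at 0.644 of WT in CRISPR Control and 1.37-fold and 1.65-fold above WT in TIMP1 KO 1 and KO 2.

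Per kilobase of exon, members spanned a wide range of levels. In WT, EMC9 was highest with 881 normalised counts per kb, followed by GMPR2 (580), TINF2 (533) and NEDD8 (463). PRKD1 had 69.9 per kb in WT and 6.12 in CRISPR Control. Of the 36 tested members, 25 had a mean of at least 100 normalised counts, and of these 23 were lower and 2 higher in CRISPR Control than in WT (26.3% and 27.2% of all tested genes), with a median of -0.66. For 18 members less than 10% of exon bases were shared with another gene on either strand, and their median in CRISPR Control was -0.39 with 10 lower and 5 higher (26.3% and 27.2%), so the median moved by more than 1.5 times when members with shared exons were left out. All 5 members that were higher in CRISPR Control belong to these 18.

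The other genes of the interval were not used to choose the members, but they lie between members chosen for a joint shift. Their tests are therefore not independent of that choice. Of 122 such genes, 19 passed the filter. Some share exon bases with other gene models on the same strand, among them BCL2L2-PABPN1 (95.4%), AL136295.5 (89.7%), AL096870.2 (81.5%) and IRF9 (23.9%). PSME1 and SLC22A17 share none on that strand. In CRISPR Control against WT, 13 of the 19 were lower and 0 higher (26.3% and 27.2% of all tested genes), with a median of -0.60. In TIMP1 KO 2 against CRISPR Control, 14 were higher and 0 lower (33.3% and 34.4%), with a median of 1.02. Against WT, 8 were higher and 2 lower in TIMP1 KO 2 (27.1% and 27.9%), and 5 were higher and 1 lower in TIMP1 KO 1 (18.0% and 17.5%).

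PSME1 and PSME2, whose products form the activator PA28 of the proteasome that interferon induces, had the highest means of this set. PSME2 had 3368, 2854 and 2848 normalised counts in WT, 1622, 2002 and 1774 in CRISPR Control, 4064, 4395 and 4028 in TIMP1 KO 1 and 6269, 6384 and 6612 in TIMP1 KO 2, without overlap between lines. It fell by 0.75 on the log2 scale in CRISPR Control against WT (SE 0.08, limma adjusted p = 5.12e-07) and rose by 1.09 in TIMP1 KO 2 (SE 0.08, adjusted p = 2.92e-09). PSME1 fell by 0.43 in CRISPR Control (adjusted p = 0.00022) and rose by 1.28 in TIMP1 KO 2 (adjusted p = 1.9e-10), with 2743, 2342 and 2277 in WT and 5670, 5885 and 6320 in TIMP1 KO 2. IRF9, which carries the interferon signal to the nucleus and is named here after its values were seen, was low in counts and steep in its difference, at 30.6, 19.1 and 27.6 in WT, 13.0, 14.2 and 16.5 in CRISPR Control, 60.5, 60.8 and 56.5 in TIMP1 KO 1 and 115, 156 and 105 in TIMP1 KO 2. It was 4.74-fold above WT in TIMP1 KO 2 (adjusted p = 1.66e-07) and 2.29-fold above it in TIMP1 KO 1 (adjusted p = 0.000518).

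SLC22A17, a receptor for the iron carrier lipocalin, and the lncRNA AL132800.1 also rose in TIMP1 KO 2 against CRISPR Control, by 1.67 (SE 0.14, limma adjusted p = 2.89e-09) and 1.53 (SE 0.16, adjusted p = 8.08e-08) on the log2 scale. The smallest rises past the threshold among the better expressed genes were those of DHRS4-AS1 (0.44, adjusted p = 0.00145), the cell survival gene BCL2L2 (0.77, adjusted p = 7.93e-08), DHRS4L2 (0.94, adjusted p = 1.39e-05) and PPP1R3E, a glycogen phosphatase subunit (1.22, adjusted p = 5.85e-08). DHRS4-AS1 runs opposite to DHRS4, and without a stated strand setting their reads cannot be told apart where they overlap, over 11.2% of the DHRS4 exon bases. The same limit holds for other members that share exon bases on the opposite strand. Among these are SDR39U1 (66.6%), AP1G2 (50.8%), KHNYN (29.4%), TINF2 (27.9%) and GMPR2 (26.6%).

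The lower level in CRISPR Control did not stop at the ends of the block. C14orf119, the nearest tested gene before HOMEZ, was lower in CRISPR Control than in WT by a log2 difference of -0.46 (SE 0.09, limma adjusted p = 0.000284). AP4S1, an adaptor subunit and the nearest tested gene to start after STRN3, was lower by -0.89 (SE 0.14, adjusted p = 2.34e-05). AP4S1 starts at chr14:31025106, within the bounds of STRN3, although STRN3 shares no exon bases with it. With these genes counted, 1 consecutive tested gene before the interval and 3 after it were called lower. Of 44 tested genes of chromosome 14 before the interval, 31 were lower and 3 higher, with a median of -0.55. Of 407 after it, 190 were lower and 39 higher, with a median of -0.24. In bands of 10 Mb outside the interval, the median was -0.58 (41 genes, all before the interval) from 20 to 30 Mb, -0.38 (38 genes, after it) and -0.24 (25 genes) in the next bands, 0.00 (60 genes) from 50 to 60 Mb and -0.21 to -0.30 further on. The difference between the block and these flanks was not tested.

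**Figure D4:**
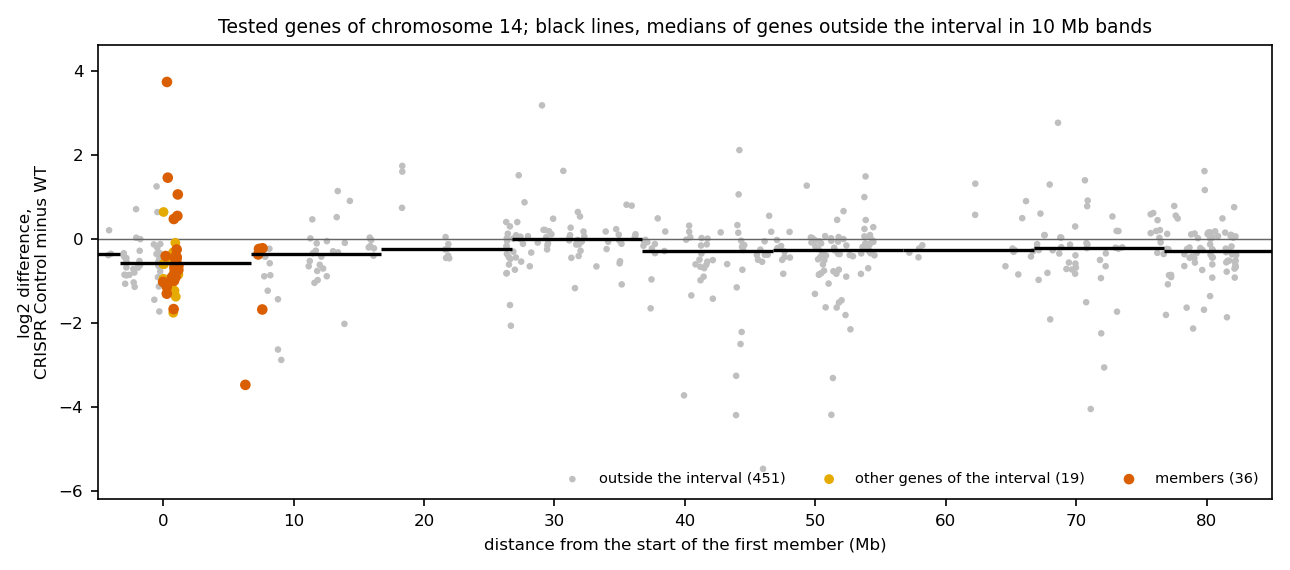
Log2 difference of CRISPR Control from WT (y axis) for the 506 tested genes of chromosome 14, by distance of their start from that of the first member (x axis, Mb). Members are orange, other genes of the interval yellow and genes outside it grey, and black lines are medians of the grey genes in 10 Mb bands. Grey genes near the block lie mostly below 0, as the block does, with a median of -0.58 over the 41 in the band before its first member and -0.38 over the 38 in the band after its last.

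Chromosome 14 as a whole had a median of -0.31 in CRISPR Control against WT over its 506 tested genes, with 260 lower and 47 higher. On the other chromosomes this median ran from -0.47 on chromosome 21 and -0.23 on chromosome 20 to 0.25 on chromosomes 3 and 5. In the knockout lines against WT, the median of chromosome 14 was 0.12 (TIMP1 KO 1) and 0.14 (TIMP1 KO 2). Before the interval it was -0.03 and 0.01 in these lines, beside the member medians of 0.19 and 0.29.

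Proteins that work with members of the block but are encoded on other chromosomes give a further comparison. Of 64 such partner genes of 12 complexes or pathways, 63 passed the filter. In CRISPR Control against WT, 32 were higher and 6 lower (27.2% and 26.3% of all tested genes), with a median of 0.21. In TIMP1 KO 2 against CRISPR Control, 11 were higher and 36 lower (33.3% and 34.4%), with a median of -0.29. Against WT, TIMP1 KO 2 had 14 higher and 23 lower (27.1% and 27.9%), with a median of -0.12, and TIMP1 KO 1 had 7 higher and 12 lower (18.0% and 17.5%), with a median of -0.04.

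**Figure D5:**
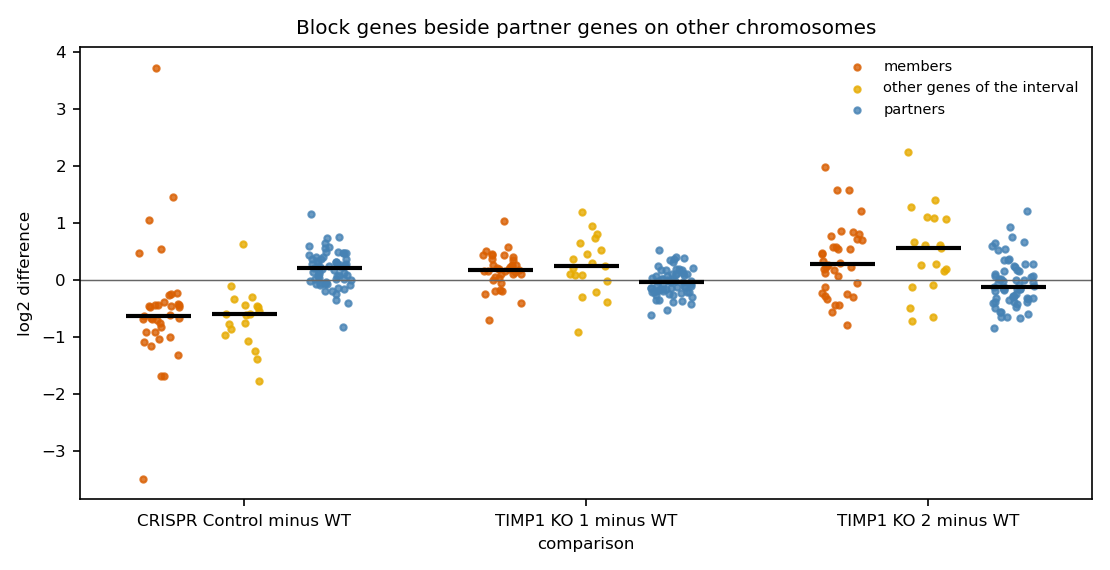
Log2 difference from WT (y axis) for 36 tested members, 19 other tested genes of the interval and 63 tested partner genes on other chromosomes, in the 3 edited lines (x axis). Each point is a gene and black lines are medians. In CRISPR Control the block genes lie mostly below 0 (medians -0.63 and -0.60) and the partners have a median of 0.21.

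For shelterin, all 5 partners of TINF2 were lower in TIMP1 KO 2 than in CRISPR Control, whereas TINF2 itself was 1.44-fold higher there. The largest of these was ACD, which encodes TPP1, with a log2 difference of -1.14 (SE 0.10, limma adjusted p = 5.72e-09). Mean normalised counts of TERF2 were 1464 in WT, 1733 in CRISPR Control and 1533 in TIMP1 KO 2, and those of POT1 1152, 1367 and 1129. For TERF1 they were 852, 1098 and 645, and for ACD 1343, 1888 and 851. CRISPR Control was thus above WT for each of these genes, whereas in TIMP1 KO 2 TERF2 was above WT and POT1 close to it. ACD, TERF2 and TERF2IP share a chromosome with each other, with starts at chr16:67657512, chr16:69355567 and chr16:75647773. TERF1 and POT1 lie on chromosomes 8 and 7. Whether the shelterin partners shifted as a complex or with their own chromosomal neighbours was not tested. For NEDD8, 7 of 8 genes of its conjugation and removal were lower and 0 higher, led by NAE1 of the NEDD8-activating enzyme (-0.87, SE 0.07, adjusted p = 4.37e-09), whereas NEDD8 was 1.58-fold higher. CUL4A, the scaffold of the ligases that DCAF11 serves, was lower by -1.12 (adjusted p = 9.71e-12), and CHML, which presents Rab proteins to the enzyme of RABGGTA, by -1.15 (adjusted p = 3.12e-07). These partners were named for their difference, and for CUL4 and Rab prenylation other partners did not move with them. CUL4B, the other CUL4 scaffold, was higher by 0.20 (adjusted p = 0.015), RBX1 of the same ligases had a difference of 0.02 (adjusted p = 0.874), and CHM, the relative of CHML with the same task, was higher by 0.42 (adjusted p = 0.00084). Of 4 CUL4 partners 2 were lower and 1 higher, and of 3 Rab prenylation partners 2 were lower and 1 higher.

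For the other complexes only the partner with the largest difference past the threshold is named. It was picked for that difference and need not stand for the other partners of its complex, which are not described here. In TIMP1 KO 2 against CRISPR Control, AP1G1 (adaptor AP-1) had a log2 difference of -0.37 (limma adjusted p = 0.00103), EMC4 (endoplasmic reticulum membrane complex) -0.76 (adjusted p = 1.28e-07), STRN (STRIPAK) -0.76 (adjusted p = 3.9e-07) and NOC4L (small subunit processome) -0.60 (adjusted p = 9.36e-05). MLKL, the executor of necroptosis downstream of RIPK3, was higher by 1.12 (adjusted p = 2.57e-08), in cells where RIPK3 had 0 reads. CHMP4B (ESCRT-III) was higher by 0.67 (adjusted p = 1.4e-07), SEC22B (Golgi SNARE) by 0.58 (adjusted p = 4.36e-07) and CYLD, which removes linear ubiquitin chains, by 0.52 (adjusted p = 5.75e-05).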

How the data were processed

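Gene expression was measured by RNA-seq in 12 libraries, 3 per line, grouped by the sample titles. The authors trimmed the reads with cutadapt, aligned them to GRCh38 with STAR, counted them per gene and divided each library by a DESeq2 size factor, and the values were deposited as a signal of normalised counts. The annotation release and the strand setting of the counting are not given in the sources used here. Scaling sets the typical gene equal between libraries. Dividing by the value of 1 read returned whole reads for 100% of values within 0.01 reads, which gave the depths and the floor of 3 reads. Intervals of exon overlap and positions came from GENCODE on GRCh38, and gene levels per kb from exon lengths.

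Values were taken as log2(normalised count + 1), so differences of low genes are understated. Genes with a mean of at least 10 (15987) were fitted by limma 3.58.1 (R 4.3.3) over all 4 lines, and p-values were adjusted by Benjamini-Hochberg over all genes, with a threshold of 0.05. The comparisons share libraries. On simulated counts, with known changes in a small share of genes in CRISPR Control alone, the fit was checked for recovery of large changes. The check set no requirement for smaller changes and did not cover shifts of many genes at once. Alternatives were a pseudocount of 10, no filter, a minimum mean of 50, equal totals, quantile normalization, only the lines compared, a replicate block, each library left out, and count tests on the recovered reads by edgeR 4.0.16 and DESeq2 1.42.0. In CRISPR Control against WT edgeR called 4198 genes higher and 4277 lower, and limma 4344 and 4197.

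Members, gene lists and tests were chosen with earlier results of these data known. All members may be named. Values in every library were given, by rule, for the 3 highest and 3 lowest members in TIMP1 KO 2 against CRISPR Control, where the member median was largest, for the members at each end, and for the member of each role with the highest mean. Other genes of the interval were named if among the 4 highest or 4 lowest differences past the threshold with a mean of at least 100, or nearest to an end, and 1 partner gene for each complex by its difference. Remaining members with values in every library, IRF9, CUL4B, RBX1 and CHM were added after their values were seen.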

Additional observations from a re-analysis of the deposited data

How the results depend on the processing

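Member medians in CRISPR Control against WT stayed negative and those of both knockout lines against CRISPR Control positive under every alternative run, and values are log2 differences. For the members, a pseudocount of 10 gave -0.47 (CRISPR Control against WT), 0.66 (TIMP1 KO 1 against CRISPR Control) and 0.42 (deficient against competent), no filter gave -0.50 and 0.70 for the first and second of these, DESeq2 gave -0.57 for the first, and equal totals gave 0.38 (TIMP1 KO 2 against WT), 0.95 (against CRISPR Control) and 0.12 (against TIMP1 KO 1). Equal totals moved the median of all genes by over 0.1 in TIMP1 KO 2 against CRISPR Control, to 0.11. Members with under 10% of exon bases shared, an alternative chosen after seeing the data, gave -0.39 (CRISPR Control against WT), 0.57 (TIMP1 KO 2 against WT), 0.49 and 0.69 (TIMP1 KO 1 and KO 2 against CRISPR Control), 0.24 (TIMP1 KO 2 against KO 1) and 0.39 (deficient against competent).

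For the 19 other genes of the interval, fewer or more genes entered under the filters. No filter gave 0.00 (TIMP1 KO 1 against WT), 0.28 (TIMP1 KO 2 against WT), -0.33 (CRISPR Control against WT), 0.32 and 0.49 (TIMP1 KO 1 and KO 2 against CRISPR Control) and 0.14 (deficient against competent). A minimum mean of 50 gave 0.47 (TIMP1 KO 2 against WT), 1.102 and 1.375 (against CRISPR Control) and 0.77 (deficient against competent), and a pseudocount of 10 gave 0.38, 0.65, 0.77 and 0.51 for the same ones. Equal totals gave 0.65, 1.13 and 0.40 for TIMP1 KO 2 against WT, CRISPR Control and TIMP1 KO 1, and quantile normalization gave 0.25, 0.77 and -0.028, the last with its direction turned, and 0.54 for deficient against competent. In TIMP1 KO 1 against CRISPR Control edgeR and DESeq2 gave 0.99 and 0.99. The cause of these shifts was not tested.

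Leaving out 1 library gave member medians of -0.63 to -0.53 (CRISPR Control against WT), 0.72 to 0.82 and 0.77 to 0.86 (TIMP1 KO 1 and KO 2 against CRISPR Control) and -0.0089 to 0.074 (between knockout lines). Members called in TIMP1 KO 2 against WT numbered 17 to 27, with 17 without WT replicate 3. For the other genes the ranges were 0.13 to 0.37 and 0.35 to 0.68 (TIMP1 KO 1 and KO 2 against WT), 0.76 to 1.01 (TIMP1 KO 1 against CRISPR Control) and 0.19 to 0.38 (between knockout lines). For TIMP1 KO 1 against WT the value was 0.13 without WT replicate 2, and for TIMP1 KO 2 against WT it was 0.35.

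Replicate numbers do not pair the samples, with correlations of same-numbered libraries of -0.13 to 0.16 and most near 0. With a replicate block 31 members were called in CRISPR Control against WT and 30 in TIMP1 KO 2 against CRISPR Control, as without it. Low rows such as JPH4, CHMP4A and RNF31 rest on few reads, and p-values measure only the spread between these samples.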
